A study of Arabidopsis thaliana with 4 samples.

Results

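The genes described here encode enzymes of the Calvin cycle and of glycolysis. They were chosen by function, as a list of 36 nuclear loci among 27444 nuclear protein-coding genes, and 26 of the enzymes work in the plastid and 10 in the cytosol. A gene counted as met by LEC1-FLAG where a peak summit lay between 1000 bp outside and 200 bp inside either end of the gene, and this stretch is called the gene end below. The list holds the 4 Rubisco small subunit genes, Rubisco activase, plastid enzymes of the Calvin cycle, the 3 CP12 genes and cytosolic enzymes of sugar breakdown. It also holds PGI1, a plastid enzyme on the way towards starch, and FBP, a cytosolic enzyme on the way to sucrose. Gene names are common names, and some differ from the symbols of the RefSeq gene table. For example, ENO2, FBA3, RPI3 and PGK3 stand there as LOS2, PDE345, EMB3119 and PGK. TKL1, TKL2 and the neighbour gene LHCB7 have no symbol there. AT1G56190, AT5G64380 and AT5G42740, which also have no symbol there, are given by identifier. Their compartments (plastid, plastid and cytosol in that order) come from general knowledge and not from the table.

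LEC1 is a seed-specific NF-YB subunit. NF-YB joins NF-YC and NF-YA in a factor known for binding the CCAAT element, and LEC1 is required for embryo maturation and for the greening of the embryo. In the plastid, Rubisco fixes CO2 to 3-phosphoglycerate, which the Calvin cycle reduces to triose phosphate and turns back into the CO2 acceptor. In green oilseed embryos, sucrose from the mother plant is broken down by glycolysis in both the cytosol and the plastid, and the products feed the synthesis of storage oil. Rubisco can also refix CO2 there that oil synthesis releases.

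Chromatin immunoprecipitation with an anti-FLAG antibody used developing seeds that carried the pLEC1:LEC1-FLAG transgene in the lec1-4 mutant, so all libraries shared both the mutation and the transgene. There were 2 ChIP and 2 input libraries, described by the submitters as biological replicates. The stage is seed mature stage in the sample labels and embryo expansion in the title of the series. Growth was at 22°C under a day of 16 h light. Whole seeds hold embryo, endosperm and seed coat, and a summit was not assigned to any of them. A peak list cannot be checked for tissue markers, and an anti-FLAG library from plants without the tag was not analysed here.

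The replicates had nearly equal ChIP depth and very unequal yield of summits. Replicate 1 rested on 4454133 ChIP tags and gave 15542 nuclear summits, and replicate 2 rested on 4493099 and gave 3777. The median fold of a nuclear summit was 3.70 in replicate 1 and 3.29 in replicate 2. Fold is the authors' own value, the pileup of ChIP fragments at the summit over the local background expected from the input. Intervals in brackets are 95% exact Poisson intervals of the pileup carried to the fold, and they cover counting error of the ChIP library only. Each peak passed the authors' q threshold of 0.05 within its own library, and with 1 list per replicate no test between conditions exists here.

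LEC1-FLAG met 9 of the 36 genes (25%) in both replicates, against 11.7% of all nuclear protein-coding genes. These were Rubisco activase (RCA), the plastid fructose-1,6-bisphosphatase HCEF1, transketolase TKL1, the plastid aldolases FBA2 and FBA3, CP12-3, the cytosolic glyceraldehyde-3-phosphate dehydrogenase GAPC1, the cytosolic enolase ENO2 and AT5G42740. Replicate 1 alone met 25 of the 36 (69.4%), where 42.4% of all genes were met. Replicate 2 alone met 10 (27.8%), where 12.0% of all genes were met. A further 16 genes were met in replicate 1 only, 1 gene (RBCS1A) in replicate 2 only, and 10 in neither. Of all 27444 genes, 11634 were met in replicate 1, 3307 in replicate 2 and 3201 in both, so most genes met in replicate 1 were also missed by replicate 2 across the genome. No test of these shares was made, because the genes of a list are not replicates.

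**Figure D1:**
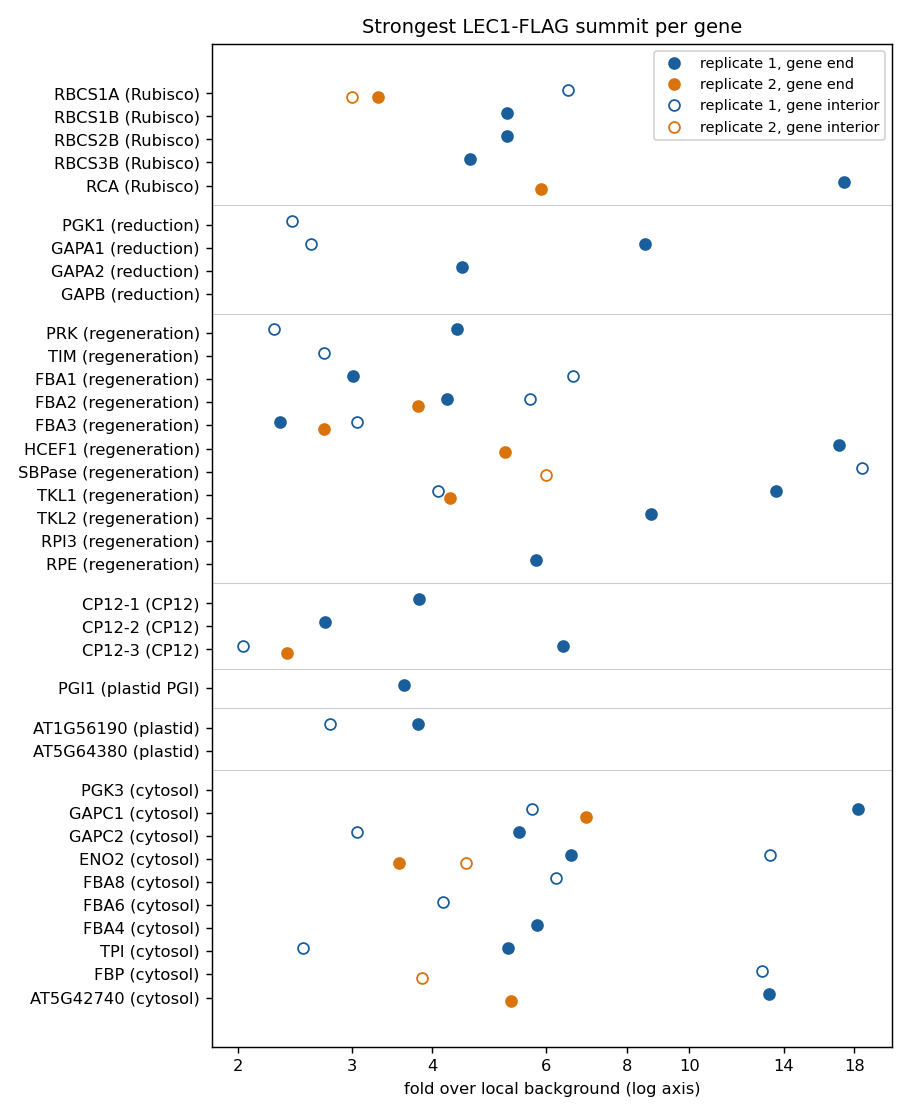
Fold of the strongest summit of each of the 36 genes, on a log axis, at the gene end (filled) and deeper inside the gene (open), in replicate 1 (blue) and replicate 2 (orange); rows are grouped by role. GAPC1, RCA, HCEF1 and SBPase stand at 17.0 to 18.5 in replicate 1 and at 5.19 to 6.91 in replicate 2, and GAPB, AT5G64380, RPI3 and PGK3 have no summit.

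Within the Rubisco group, the activase gene and not a small subunit gene carried the strong site. RCA (AT2G39730), whose product frees Rubisco of inhibitory sugar phosphates, had a pileup of 161 fragments and a fold of 17.3 in replicate 1 (14.8 to 20.2). In replicate 2 RCA had a pileup of 46 and a fold of 5.88 (4.34 to 7.81). The summits lay at positions 16573568 and 16573603 of chromosome 2, 35 bp apart and inside the gene by 124 and 89 bp. The fold of RCA was above that of 99.0% of nuclear summits in replicate 1 and of 94.3% in replicate 2.

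The 4 small subunit genes, which encode the part of the Rubisco holoenzyme made from the nuclear genome, had weaker sites. RBCS1A (AT1G67090) had a fold of 6.49 in replicate 1 (5.15 to 8.08) at position 25049459 of chromosome 1, and 3.29 in replicate 2 (2.16 to 4.83) at 25049515. These lay 56 bp apart and 208 and 152 bp inside the same gene end, so the limit of 200 bp ran between them and RBCS1A counted as met in replicate 2 alone. RBCS1B, RBCS2B and RBCS3B lie next to each other on chromosome 5 and had summits in replicate 1 only. RBCS1B and RBCS2B shared 2 summits between them, at 5.21 (3.82 to 6.95) and 3.52 (2.36 to 5.06), so they do not count as separate sites. RBCS3B had 4.58 (3.44 to 5.98). The nearest replicate 2 summit to any of these 3 genes was 24391 bp away. The 3 neighbouring genes are close copies of each other, the alignment file names point to reads placed uniquely, and how far this lowered their pileup was not tested.

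The reduction steps, which turn 3-phosphoglycerate into triose phosphate, had no gene met in both replicates. GAPA1 (AT3G26650), an A subunit of the NADPH-dependent glyceraldehyde-3-phosphate dehydrogenase, had a fold of 8.53 in replicate 1 (6.75 to 10.7) with a pileup of 76. Its summit lay 68 bp inside GAPA1 and 56 bp from an end of the neighbour LWD2, a clock-related gene, and the nearest replicate 2 summit was 36192 bp away. GAPA2 had 4.45 (3.21 to 6.02), 8 bp outside the gene and again in replicate 1 only. GAPB, the B subunit of the same enzyme, had no summit of either replicate within 6283 bp. The plastid phosphoglycerate kinase gene PGK1 had an interior summit of 2.42 in replicate 1 (1.54 to 3.64) and none at its ends. The subunit genes of 1 enzyme therefore ran from a fold of 8.53 to no summit within a single replicate.

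Regeneration of the CO2 acceptor held strong sites at both bisphosphatase steps, at HCEF1 and at SBPase. HCEF1 (AT3G54050) encodes the plastid fructose-1,6-bisphosphatase, which is switched on in the light. It had a pileup of 186 and a fold of 17.0 in replicate 1 (14.7 to 19.6), and a pileup of 38 and a fold of 5.19 in replicate 2 (3.71 to 7.07). The summits at positions 20016860 and 20016809 of chromosome 3 lay on either side of the gene end, 23 bp inside and 28 bp outside, and no other gene had them in its window.

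SBPase (AT3G55800), sedoheptulose-1,7-bisphosphatase, is an enzyme particular to the Calvin cycle. It had the highest replicate 1 fold of all 36 genes, 18.5 (15.6 to 21.7) with a pileup of 146, and 6.0 (4.33 to 8.12) with a pileup of 40 in replicate 2. The summits at positions 20709506 and 20709505 of chromosome 3 were 1 bp apart, and 212 and 211 bp inside the gene, just past the limit of 200 bp. SBPase thus did not count as met by the gene-end rule, although both replicates had the site and its fold was above that of 99.4% of replicate 1 summits. Both summits also lay in the window of the neighbour AT3G55790, 848 and 847 bp from an end of it.

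TKL1 (AT3G60750), a transketolase that moves carbon pairs between sugar phosphates, had 13.6 in replicate 1 (11.3 to 16.2) and 4.26 in replicate 2 (2.97 to 5.93). Those summits were 24 bp apart and stood 547 and 571 bp outside the gene, nearly midway to the neighbour AT3G60760, whose end was 611 and 587 bp away. TKL2 (AT2G45290), the second transketolase gene, had 8.71 (6.81 to 11) in replicate 1 and no replicate 2 summit within 16403 bp of any of its summits. That TKL2 summit was 773 bp from TKL2 and 54 bp from an end of AT2G45300. The paralogs thus differed in whether replicate 2 had the site, and no test of that difference exists here.

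The 3 plastid aldolase genes, which join triose phosphates, had weaker and less well placed sites. FBA2 (AT4G38970) had a fold of 4.22 in replicate 1 (3.02 to 5.75) and 3.80 in replicate 2 (2.55 to 5.46), but these were 807 bp apart and the closest gene-end summits 612 bp. A better pair for FBA2 was the replicate 1 summit 242 bp inside the gene, with a fold of 5.67 (4.42 to 7.17), which stood 107 bp from the replicate 2 summit. FBA3 (AT2G01140) had 2.33 (1.48 to 3.50) and 2.72 (1.65 to 4.26) at summits 627 bp apart, which were therefore not 1 site found by both replicates. FBA1 (AT2G21330) had 3.01 (1.99 to 4.39) at its end and 6.61 (5.07 to 8.48) at 348 bp inside, both in replicate 1 only. FBA2 and FBA3 stand among the 9 genes met in both because the rule does not ask gene-end summits to share a position. For FBA2, unlike FBA3, both replicates had a common site, but its replicate 1 summit fell past the limit of 200 bp.

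The other regeneration genes were seen in replicate 1 or not at all. PRK (AT1G32060), phosphoribulokinase, makes the CO2 acceptor itself and had 4.37 (3.39 to 5.55). RPE (AT5G61410), ribulose-phosphate epimerase, had 5.79 (4.31 to 7.61). TIM, the plastid triose-phosphate isomerase, had only an interior summit of 2.72 (1.79 to 3.96), 1234 bp from its nearer end. For RPI3, ribose-5-phosphate isomerase, the nearest summit was 5683 bp away in replicate 1 and 22094 bp in replicate 2. None of these genes had a replicate 2 summit, and a summit at the gene end was common in replicate 1, at 42.4% of all genes.

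CP12 proteins bind PRK and glyceraldehyde-3-phosphate dehydrogenase in the dark and hold both inactive. CP12-3 (AT1G76560) was the member of the family met in both replicates, with 6.37 in replicate 1 (4.81 to 8.27) and 2.38 in replicate 2 (1.42 to 3.79). The CP12-3 summits were 107 bp apart, and they also lay in the window of the neighbour AT1G76570 (LHCB7), a light-harvesting protein gene, at 52 and 159 bp from its end. CP12-1 had 3.81 (2.66 to 5.31) and CP12-2 had 2.72 (1.77 to 4.03), both in replicate 1 only. The CP12-2 summit also lay in the windows of 2 other genes. It was 312 bp from an end of AT3G62400 and 453 bp from an end of BZIP53, a regulator of seed maturation genes.

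Of the other plastid genes, PGI1 (AT4G24620), the plastid phosphoglucose isomerase that leads from fructose phosphate towards starch, had 3.62 (2.56 to 4.97) in replicate 1 only. AT1G56190 had 3.79 (2.66 to 5.26) in replicate 1 only, 66 bp from an end of the neighbour EMB1303 and 169 bp from its own. AT5G64380 had no summit within 5586 bp in replicate 1 or 5571 bp in replicate 2.

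**Figure D2:**
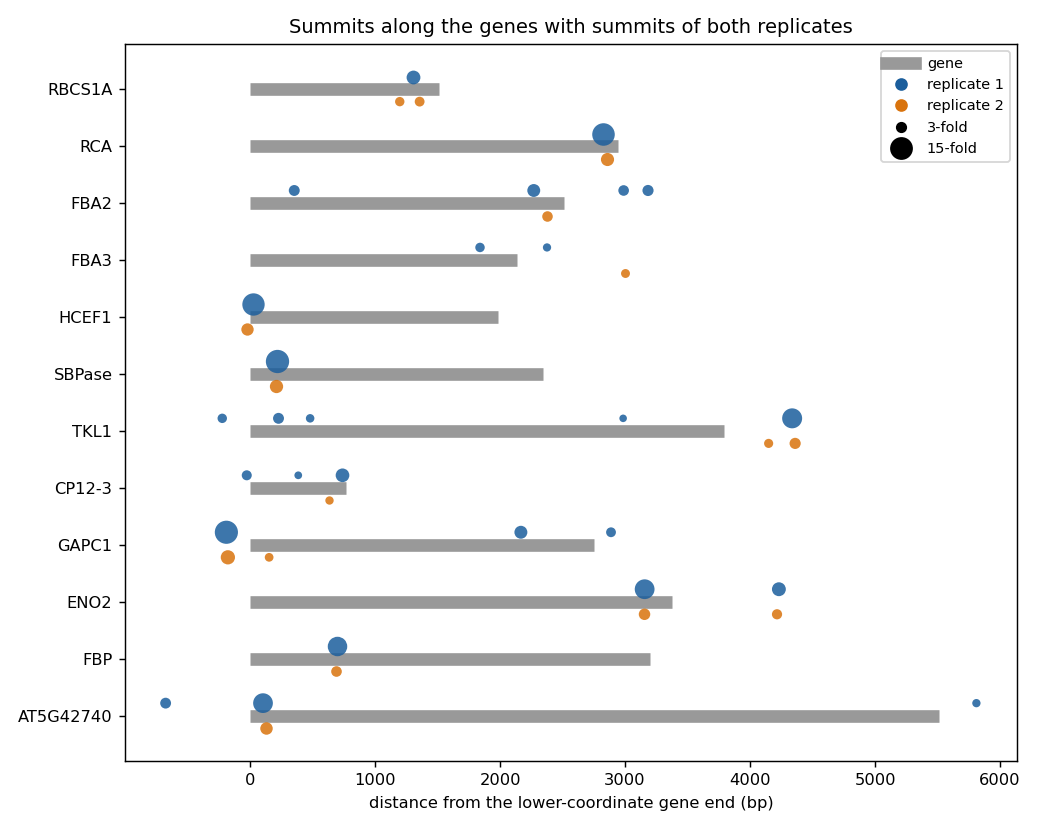
Summits of replicate 1 (blue, above the gene) and replicate 2 (orange, below) along the 12 genes with a summit of both replicates inside the gene or up to 1000 bp outside; the grey bar is the gene, the axis is the distance in bp from its end of lower coordinate, and the area of a point is proportional to fold. The strongest summits of RCA, HCEF1, SBPase, TKL1, GAPC1, ENO2, FBP and AT5G42740 coincide between replicates to within 51 bp, while those of FBA3 do not meet.

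In the cytosol, GAPC1 (AT3G04120) had the highest smaller fold of both replicates among the 36 genes. Its product oxidises glyceraldehyde-3-phosphate with NAD in glycolysis. GAPC1 had a pileup of 158 and a fold of 18.3 in replicate 1 (15.5 to 21.3), and a pileup of 51 and a fold of 6.91 in replicate 2 (5.18 to 9.05). By the smaller of both folds it stood at place 79 of the 3201 genes met in both replicates. The summits at positions 1080753 and 1080765 of chromosome 3 were 12 bp apart, 189 and 177 bp outside GAPC1 and 249 and 261 bp from an end of the glutamate receptor gene GLR1.1. GAPC2 (AT1G13440), the second cytosolic gene of this enzyme, had 5.45 (4.04 to 7.21) at its end in replicate 1, and the nearest replicate 2 summit to the gene was 22580 bp away.

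AT5G42740 was met in both replicates at 1 place, with 13.3 in replicate 1 (11.2 to 15.7) and 5.30 in replicate 2 (3.77 to 7.25). Its summits at positions 17135765 and 17135785 of chromosome 5 were 20 bp apart and 104 and 124 bp inside the gene, and no other gene had them in its window. With RCA, HCEF1 and GAPC1, it completes the 4 genes of the list whose smaller gene-end fold reached 5, a level that 418 of the 3201 genes met in both replicates (13.1%) also reached.

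ENO2 (AT2G36530), the cytosolic enolase that makes phosphoenolpyruvate, had 2 sites that both replicates shared. The stronger lay inside the gene, at 216 and 217 bp from its end, with 13.3 in replicate 1 (11 to 16) and 4.50 in replicate 2 (3.19 to 6.19). Its summits at positions 15323913 and 15323912 of chromosome 2 were 1 bp apart. The weaker stood outside, at 858 and 843 bp, with 6.56 (5.18 to 8.21) and 3.55 (2.33 to 5.22). By the gene-end rule ENO2 was met through the weaker site alone, which was nearer to AT2G36540, at 250 and 265 bp from an end of it.

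FBP (AT1G43670), the cytosolic fructose-1,6-bisphosphatase on the way to sucrose, was the third gene with an interior site in both replicates that the gene-end rule left out. Its folds were 12.9 (10.6 to 15.7) and 3.86 (2.61 to 5.51) at positions 16467993 and 16467989 of chromosome 1, 4 bp apart and 695 and 691 bp inside the gene. The 3 genes named here as bisphosphatases, HCEF1, SBPase and FBP, therefore each had a site that both replicates placed within 51 bp. The enzyme of AT5G64380 was not named here, so that gene was not counted with them. It had no summit within 5586 bp in replicate 1 or 5571 bp in replicate 2.

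The other cytosolic genes had replicate 1 summits or none. TPI (AT3G55440), the cytosolic triose-phosphate isomerase, had 5.24 (3.84 to 7.0) and 5.19 (3.89 to 6.80) at summits on either side of its lower-coordinate end. Of the cytosolic aldolases, FBA4 had 5.80 (4.56 to 7.28) at 727 bp outside, FBA8 had 6.22 (4.71 to 8.06) at 223 bp inside and FBA6 had 4.15 (2.91 to 5.75) at 227 bp inside. FBA8 and FBA6 had no gene-end summit. For PGK3, a cytosolic phosphoglycerate kinase gene, the nearest summit was 4366 bp away in replicate 1 and 4401 bp in replicate 2. No aldolase of the cytosol was met in replicate 2.

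The cytosolic share of genes met in both replicates was above the plastid share, and in replicate 1 alone it was below it. In both replicates LEC1-FLAG met 6 of 26 plastid genes (23.1%) and 3 of 10 cytosolic genes (30.0%), against 11.7% of all genes. In replicate 1 the order of the shares was the other way, with 19 of 26 plastid genes (73.1%) and 6 of 10 cytosolic genes (60%), and in replicate 2 there were 7 (26.9%) and 3 (30.0%). With the whole gene added to the window, 12 of the 36 genes had summits of both replicates (33.3%), 8 plastid (30.8%) and 4 cytosolic (40%), against 13.3% of all genes. The genes this added were RBCS1A, SBPase and FBP. Where the summits of both replicates had to lie within 150 bp of each other, 4 plastid genes (15.4%) and 3 cytosolic genes (30%) were left, against 11.1% of all genes. Without the genes given by identifier (AT1G56190, AT5G64380 and AT5G42740), 6 of 24 plastid genes (25%) and 2 of 9 cytosolic genes (22.2%) were met in both replicates. With all genes kept and the limit moved to 300 bp inside, 8 of 26 plastid genes (30.8%) and 3 of 10 cytosolic genes (30.0%) were met. That alternative was also chosen after seeing the data. With 500 bp outside or the nearest gene only, 5 of 26 plastid genes (19.2%) and 2 of 10 cytosolic genes were met. The order of the compartments thus rested on AT5G42740 and also on the limit of 200 bp. The difference between the compartments was not tested. The strongest site of each compartment was of like size, with SBPase at 18.5 and 6.0 and GAPC1 at 18.3 and 6.91, and their intervals overlapped in both replicates.

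**Figure D3:**
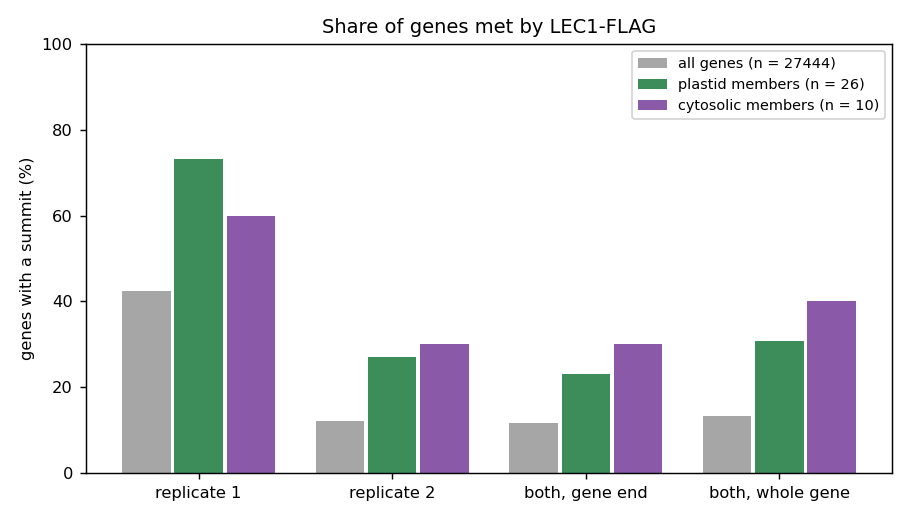
Percent of genes with a summit at the gene end in replicate 1, in replicate 2 and in both, and with a summit in the whole gene or within 1000 bp of it in both, for all nuclear protein-coding genes (grey), the 26 plastid genes (green) and the 10 cytosolic genes (purple). Both compartments lie above all genes in each class, and their order to each other changes between replicate 1 and the other classes.

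Many of these sites lay within the genes. Of the 32 genes with any replicate 1 summit inside or within 1000 bp, 10 had their strongest one outside the gene (31.3%), against 61.9% of all 13227 genes with such a summit. A further 11 had it up to 200 bp inside (34.4%, against 21.0% of all genes), 7 had it more than 200 and up to 300 bp inside (21.9%, against 5.04%), and 4 had it deeper (12.5%, against 12.1%). In replicate 2 the strongest summit was outside in 4 of 12 genes (33.3%), against 70.5% of all genes with one. The gene table gives no strand, so starts and ends of transcription were not told apart, and no test of these shares was made. The 7 genes just past 200 bp were SBPase, ENO2, RBCS1A, FBA8, FBA2, FBA6 and FBA3, and the gene-end limit falls just short of them, while CP12-2 at 189 bp and RPE at 167 bp stood just within it.

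A site at a gene end can stand at the end of a neighbour too. Of the 25 genes met in replicate 1, 16 had their strongest gene-end summit also in the window of another gene, and in 7 of these it was nearer to the other gene. Among the 9 met in both replicates the counts were 5 and 2, with FBA2 and ENO2 the pair whose summit was nearer to the neighbour. RCA, HCEF1, AT5G42740 and FBA3 had theirs in no other window. The counts of shared and nearer summits were not made over all genes met, so they do not set this list apart. Which gene such a site acts on was not tested.

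How far replicate 2 could be asked to repeat replicate 1 depended on the fold. Over all nuclear summits of replicate 1, 12.4% (11.1 to 13.9, Wilson 95%) of those with a fold of 4 to 5 had a replicate 2 summit within 150 bp, 71.3% (68.1 to 74.2) of those with a fold of 8 to 10, and 98.3% (94.0 to 99.5) of those with 18 or more. Taking the strongest replicate 1 summit of each of the 32 genes, inside or outside, 11 were matched in this way, with folds of 5.67 to 18.5, and 21 were not, with folds of 2.42 to 8.71. All 8 genes with a fold above 10 were matched. This was near the share of all nuclear summits, at 91.8% for folds of 10 to 14 and 98.7% for 14 to 18. Of the pair between 8 and 10, TKL2 and GAPA1, neither was matched. The replicate 1 fold was 2.64 times the replicate 2 fold at the median of the 9 genes met in both, and 2.44 times at the median of all 3201.

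**Figure D4:**
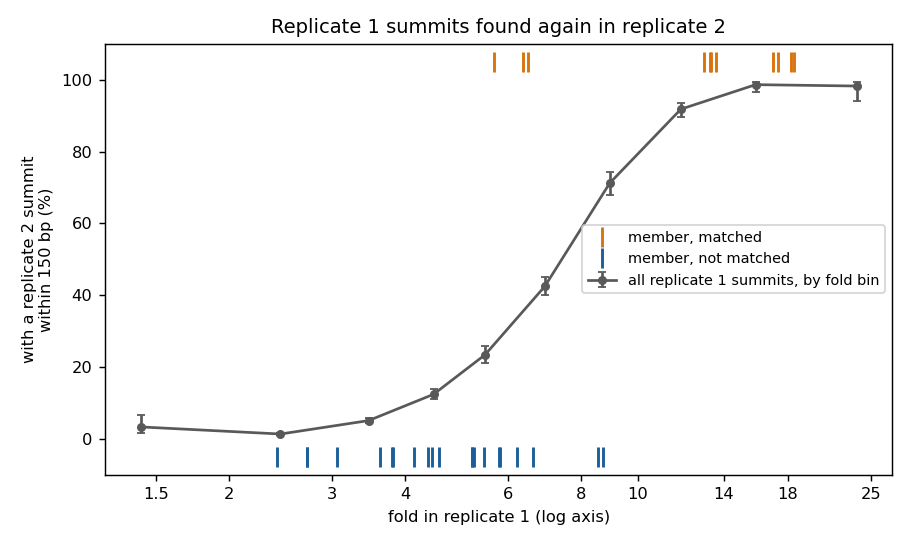
Percent of replicate 1 summits with a replicate 2 summit within 150 bp, by replicate 1 fold on a log axis, for all nuclear summits (grey points with Wilson 95% intervals); the ticks above and below mark the strongest replicate 1 summit of each of the 32 genes, matched (orange) or not (blue). The matched genes run from 5.67 to 18.5 and the others from 2.42 to 8.71, where the grey curve is climbing.

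The rest of glycolysis and the oxidative pentose phosphate pathway give the context of these genes. Of 30 other glycolysis genes, 14 (46.7%) were met in replicate 1, against 42.4% of all genes, and 5 (16.7%) in both replicates, against 11.7%. The strongest by the smaller fold were GAPCP2 (21.4 and 5.38), which encodes a plastid glyceraldehyde-3-phosphate dehydrogenase of glycolysis, the phosphoglycerate mutase gene iPGAM2 (10.8 and 3.99) and the phosphofructokinase gene PFK1 (4.28 and 3.22). The other two, named after their values were seen, were PFK2 (17.6 and 3.09) and GAPCP1 (9.53 and 2.72). All 3 plastid pyruvate kinase genes were met in replicate 1 only, at folds of 1.98 to 2.88, and none of the 3 hexokinase genes was met. Of 9 genes of the oxidative pentose phosphate pathway, 6 were met in replicate 1 (66.7%) and 1 in both (11.1%), the 6-phosphogluconolactonase gene PGL3 (6.48 and 3.30).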

How the data were processed

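Peak lists of the 2 ChIP libraries were used. Per the file headers, MACS 2.1.0.20150420 called each ChIP library over its own input, without pooling, at q 0.05, with fragments extended to 187 bp (replicate 1) and 149 bp (replicate 2). BWA 0.7.12 and TAIR10 are named in the submitters' processing notes. The deposited pileup is a signal, the count of extended fragments at a summit after scaling the larger library down. The deposited fold is a ratio of pileup to local background with 1 added to both, and the deposited −log10 q-value gives its significance. These values are the authors' own per summit and come from separate calls with different extension and input depth (7578894 and 9646586 tags).

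Summits on the 5 nuclear chromosomes were assigned to RefSeq protein-coding genes of assembly TAIR10.1 with Python 3.11.15, numpy 2.4.6, pandas 2.3.3 and scipy 1.17.1. All 36 genes matched by identifier. As a check of coordinates, the share of replicate 1 summits at most 200 bp from a gene end was 42.6%, and 20.1% or lower after shifts of 500 bp or more. A summit counted for each gene whose window held it. All 1092 simulated summits around 273 isolated genes were assigned as placed. No gene list was tested. Planned steps that need strand or sequence (gene starts, CCAAT and other motifs) were not run. The genes, lists and comparisons were chosen with earlier results of these data known. All genes met in both replicates are named, and up to 3 per other list by the smaller fold of both replicates. Alternatives changed the window, the threshold, the assignment and the match between replicates.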

Additional observations from a re-analysis of the deposited data

Results flagged for a closer look

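Replicate 2 had 292 summits on the chloroplast genome, in 26 peaks with folds of 1.44 to 1.89, and replicate 1 had 0. This signal stands outside the comparisons above, which concern nuclear genes, and its source was not tested.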

How the results depend on the processing

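With −log10 q of at least 10 in each replicate, 4 of the 36 genes stayed (RCA, HCEF1, GAPC1 and AT5G42740), 2 of 26 plastid (7.69%) and 2 of 10 cytosolic (20%), where 2.58% of all genes did. On a single replicate the count was 10 to 25 of the 36 genes, 7 to 19 of the plastid genes and 3 to 6 of the cytosolic genes, the higher value each time from replicate 1. Under the other alternatives the count for all 36 genes ran from 7 to 12. The share of all genes ran from 6.65% to 16.6%, and not always in step with that count. It was 7 (19.4%) with −log10 q of at least 5, against 6.65% of all genes, with 500 bp outside, against 8.62%, and with the nearest gene only, against 7.57%. It was also 7 with summits within 150 bp or overlapping peaks, against 11.1% to 11.4%, and there and at −log10 q of at least 5 the compartments had 4 plastid (15.4%) and 3 cytosolic genes (30%). With 2000 bp outside it was 10 (27.8%), against 16.6%. FBA2 and FBA3 were lost when both replicates had to have the gene-end summit within 150 bp or in overlapping peaks. ENO2 was lost with 500 bp outside, as was FBA3, or with the nearest gene only, as was FBA2. With 300 bp inside, an alternative chosen after seeing that genes of the list lie just past 200 bp, SBPase and RBCS1A were gained. Then 11 genes (30.6%) were met in both, against 12.1% of all genes. They were 8 of 26 plastid genes (30.8%) and 3 of 10 cytosolic genes (30%), so the plastid share was no longer the lower. Leaving out the genes given by identifier, also chosen after seeing the data, left 8 of 33 (24.2%), against 11.7%. The start-only window was not run, since the gene table gives no strand. No paired analysis was possible because the values come from peak lists of 2 ChIP libraries and no test compares groups. Replicate 2, with fewer summits, limits every count in both replicates.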

Other observations

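Genes around the Calvin cycle outside the list were met as follows. Of 12 photorespiration genes, which recover carbon lost when Rubisco takes up oxygen, 8 were met in replicate 1 (66.7%, against 42.4% of all genes) and 3 in both replicates (25%, against 11.7%). These were AGT1, an aminotransferase of the peroxisome, with folds of 8.24 and 3.69, the hydroxypyruvate reductase gene HPR1 with 11 and 3.31, and the glycine decarboxylase gene GLDP1 with 5.52 and 2.25. Of 9 genes for Rubisco folding and assembly, 4 were met in replicate 1 (44.4%) and 2 in both (22.2%), the assembly chaperone genes RBCX2 (7.64 and 3.92) and RBCX1 (4.60 and 3.03).

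The 8 genes of plastid phosphate translocators and phosphoglucomutases included 5 met in replicate 1 (62.5%, against 42.4% of all genes) and 0 met in both, against 11.7% of all genes. The 6 thioredoxin system genes, whose products pass light activation to enzymes such as HCEF1, SBPase and PRK, included 4 met in replicate 1 (66.7%) and 0 met in both. With lists this short, 0 is near the share of all genes. No test was made of any of these counts.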
